A study of Mus musculus with 30 samples.

Results

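The transcripts of 9 genes of the CC chemokine system were followed in BM and in adipose tissue macrophages (ATMs) of obese mice carrying Shp2E76K/+-mutant hematopoietic cells. They are the ligand genes Ccl2, Ccl7, Ccl8, Ccl12, Ccl3, Ccl4 and Ccl5 and the receptor genes Ccr1 and Ccr2, chosen by symbol, and all 9 were among the 13353 genes counted in BM and the 17059 counted in ATMs. Recipients were lethally irradiated with 700 cGy and then 400 cGy and received CD45.2 BM cells of Shp2E76K/+;LysM-Cre+ donors, in which Cre is expressed in myeloid cells, mixed in equal number with CD45.1 competitor cells of Boy/J mice. There were 5 groups with 3 libraries each per tissue. WT recipients were C57BL/6 mice, for which the labels give no dosing and no time after transplantation. The other 4 groups were leptin-deficient Ob/Ob recipients, which from 8 weeks after transplantation were treated for 30 days with vehicle (Vehicle), with the GLP-1R agonist beinaglutide at 3 mg/kg subcutaneously (GLP-1RA), with an anti–IL-17A antibody at 200 µg per mouse intraperitoneally 3 times a week (anti–IL-17A), or with both (Combo). The labels give an age of 12 to 14 weeks and both sexes for the mice, a genotype entry of C57BL/6J and a single batch for every sample. This age is hard to square with 30 days of treatment from 8 weeks after transplantation, and may not be the age at sampling. BM was whole marrow, and ATMs were F4/80+ cells sorted from visceral adipose tissue. Cells of the host and of the competitor were not separated from mutant cells. For BM, the labels and the paper both give mutant donor cells for WT recipients. For ATMs, the labels give mutant donor cells, while a figure legend of the paper sets mutant against normal donor cells. In ATMs, Vehicle vs WT may therefore hold a donor difference that cannot be told apart from the recipient. Vehicle dosing, and possibly time after transplantation, cannot be told apart from the recipient either.

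CC chemokines are small secreted proteins that bind G protein–coupled receptors and draw leukocytes along a gradient. CCL2, CCL7 and CCL12 (monocyte chemoattractant proteins) act on CCR2, the receptor by which inflammatory monocytes leave the BM and enter inflamed tissue such as obese fat. CCL3 and CCL4 (macrophage inflammatory proteins) and CCL5 (RANTES) recruit monocytes, T cells and NK cells, and CCR1 is a receptor of CCL3 and CCL5.

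The BM libraries held 31086184 to 39925495 counts (median 34797411) and the ATM libraries 24876074 to 45300263 (median 31854058). Levels are given as CPM of the TMM-scaled library. Within a group, replicate libraries differed by more than sampling noise in each of the 30 replicate pairs, and the first WT library of BM stood apart, with a chi-square per gene of 35.1 and 26.8 against the other WT libraries, where the remaining BM pairs lay at or below 4.30. The ATM pairs all lay higher than these remaining BM pairs, at 11.7 to 26.9. Transcripts of X- and Y-linked genes did not follow the matched sexes of the labels. Xist (the RNA of the inactive X) had a mean of 188 CPM in Vehicle and 104 CPM in Combo BM but at most 3.26 CPM in any other BM library. In ATMs Xist was at 30.1 CPM or more in each Vehicle and Combo library and at 1.22 CPM or less in each other library. Sex therefore cannot be told apart from Vehicle or Combo in the comparisons with the other groups. In a bulk library, fewer cells of a type and less RNA per cell cannot be told apart either.

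On GRCm38, the genes of the monocyte chemoattractant proteins formed 1 run on chromosome 11, from Ccl2 (82035571–82037453) through Ccl7, Ccl11 and Ccl12 (82101845–82103400) to Ccl8 (82115185–82116799), all on the plus strand. A second run on the same chromosome, 1409.0 kb further along, held Ccl5, Ccl9, Ccl6, Rpl9-ps1, Ccl3 and Ccl4 over 138.9 kb. The receptor genes stood on chromosome 9, Ccr1 (123962124–123968692) on the minus strand and Ccr2 (124101950–124113557) on the plus strand, with Ccr1l1 and Ccr3 between them. No exon of the 9 genes overlapped an exon of another gene, and among stretches of 50 bases 0% of the 8 other genes' transcripts and 1.91% of Ccr2's recurred in transcripts of another gene, so that reads could be told apart between the ligands.

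RefSeq promoters (build GRCm38.p6) were at hand for 5 of the 9 genes. The 250 bases before the start are printed for Ccl12 and Ccl8, neighbors of which the first had the largest change of the 9 genes in BM between Vehicle and WT, and for Ccr1, the receptor gene with the NF-κB match. Capitals mark the TATA box (TATAAA, transcript strand) and a match to the NF-κB consensus (either strand). They lie at chr11:82101595-82101844 (plus strand), chr11:82114935-82115184 (plus strand) and chr9:123968693-123968942 (minus strand) in the order shown.
Ccl12: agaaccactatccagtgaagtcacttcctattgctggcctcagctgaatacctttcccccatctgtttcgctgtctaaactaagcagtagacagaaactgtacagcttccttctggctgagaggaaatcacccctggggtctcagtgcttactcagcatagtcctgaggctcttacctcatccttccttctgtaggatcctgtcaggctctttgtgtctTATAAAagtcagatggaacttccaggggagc
Ccl8: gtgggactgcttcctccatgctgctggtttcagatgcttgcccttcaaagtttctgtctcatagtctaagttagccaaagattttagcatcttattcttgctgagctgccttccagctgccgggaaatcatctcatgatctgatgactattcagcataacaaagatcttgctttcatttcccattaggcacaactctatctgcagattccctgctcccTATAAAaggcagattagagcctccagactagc
Ccr1: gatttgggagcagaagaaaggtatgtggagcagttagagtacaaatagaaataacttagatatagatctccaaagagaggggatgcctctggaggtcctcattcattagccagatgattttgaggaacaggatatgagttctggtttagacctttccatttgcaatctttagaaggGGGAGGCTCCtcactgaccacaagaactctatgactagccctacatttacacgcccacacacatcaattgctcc
The TATA box began 31 bases before the start of Ccl12 and 32 bases before that of Ccl8, and 7.67% of 21263 promoters of protein-coding genes hold one within the same length. The NF-κB match of Ccr1 lay 74 to 65 bases before its start, and 7.91% of promoters hold one. The interferon-stimulated response element (in 2.96% of promoters), AP-1 (TGANTCA, 6.13%) and C/EBP (TTGCNNAA, 9.09%) were not found in these windows on either strand.

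In BM, Vehicle vs WT set marrow of obese, vehicle-dosed recipients against marrow of WT recipients. The limits on dosing, time and sex given above apply. The 7 ligands rose in Vehicle, Ccr2 fell, and Ccr1, at a log2 fold change of 0.99, was not called. A gene was called at an edgeR adjusted p below 0.05 with a log2 fold change beyond 1 in either direction, which 19.5% of all BM genes passed in this comparison (9.44% higher and 10% lower). Of the 9 genes 7 were called higher and 1 lower, and their median log2 fold change was 3.17, against -0.02 for all genes.

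Ccl2, whose product is the main ligand of CCR2, was at 1.91, 1.37 and 1.61 CPM in the WT libraries and at 88.1, 85.6 and 89.3 CPM in the Vehicle libraries. It rose by 5.74 ± 0.10 (SE) on the log2 scale (edgeR, adjusted p = 2.24e-37). Ccl12, a rodent ligand of CCR2, was nearly silent in WT with 10, 3 and 0 counts and had 911, 940 and 888 counts in Vehicle. Its log2 fold change of 7.90 ± 0.20 was the largest of the 9 genes, and without the first WT library, which held 10 of the 13 WT counts, it was 9.27. The SE thus understates the uncertainty, since it is smaller than the counting error of so few WT counts. Ccl7, which also binds CCR2, had 12, 2 and 5 counts in WT and 307, 292 and 263 in Vehicle, a log2 fold change of 5.70 ± 0.29. Ccl8 (MCP-2) went from 1.09, 1.25 and 1.14 CPM to 15.3, 14.6 and 17.1 CPM, with a log2 fold change of 3.75 ± 0.15 (edgeR, adjusted p = 1.46e-24). For none of these 4 genes did the WT and Vehicle libraries overlap, as was so for 75.8% of all genes.

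**Figure D1:**
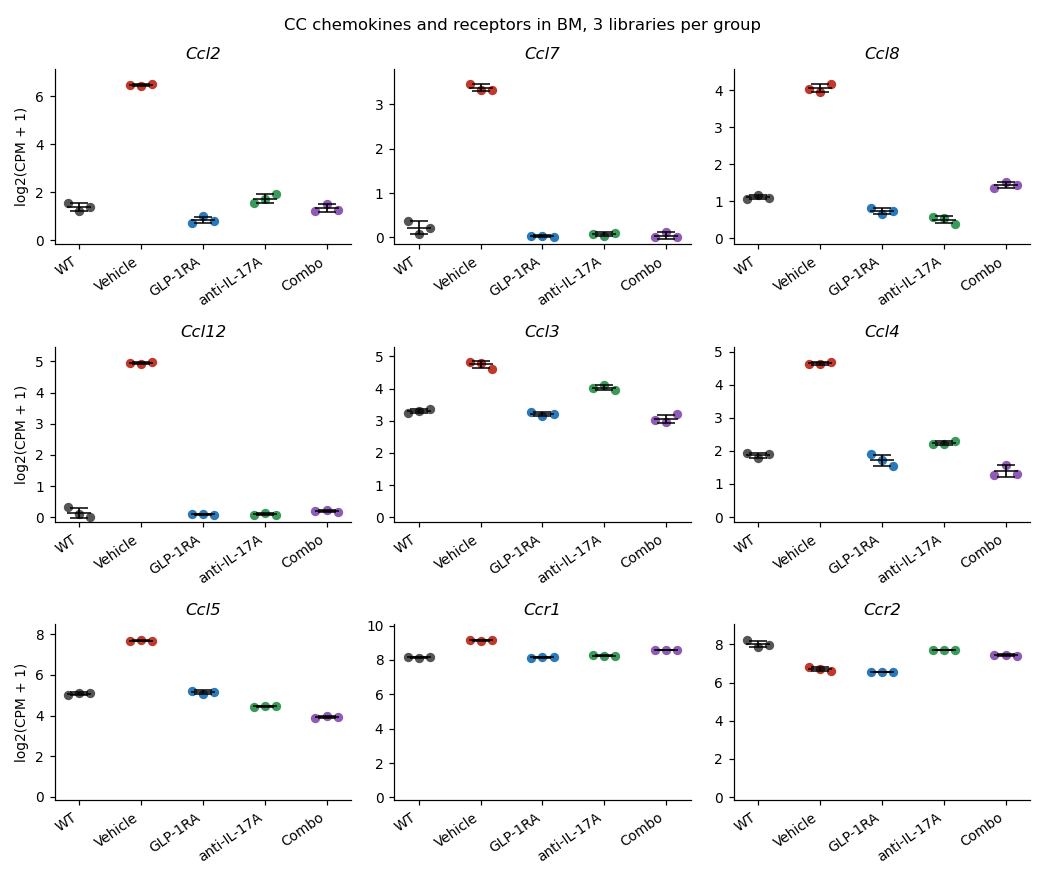
Level of each gene in BM as log2(CPM + 1), with 1 point per library, 5 groups of 3 libraries on the x axis, and bars for mean ± SD. The Vehicle points are the highest for each ligand and for Ccr1, and those of Ccr2 in Vehicle and GLP-1RA lie between 92.2 and 110.4 CPM, below the other groups.

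Among the macrophage inflammatory proteins and RANTES the rise was smaller but started from a higher WT level. Ccl3 was at 8.40, 8.83 and 9.40 CPM in WT and 27.4, 26.9 and 23.6 CPM in Vehicle, a log2 fold change of 1.55 ± 0.08. Ccl4 was at 2.83, 2.45 and 2.72 CPM in WT and 23.7, 23.8 and 24.9 CPM in Vehicle, a log2 fold change of 3.17 ± 0.11. Ccl5, made by activated T cells, NK cells and macrophages, had the highest level per length of the 7 ligands in WT BM, at 30.8, 33.6 and 34.2 CPM and reached 205.5, 209.4 and 204.8 CPM in Vehicle. Its log2 fold change was 2.65 ± 0.04 (edgeR, adjusted p = 4.18e-38). Again the libraries of both groups did not overlap for any of the 3 genes.

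The receptor genes moved apart. Ccr1, a receptor of monocytes and neutrophils, was at 293, 276 and 282 CPM in WT and 569, 558 and 565 CPM in Vehicle. Its log2 fold change of 0.99 ± 0.02 (edgeR, adjusted p = 9.63e-32) lay just inside the fold limit, and with DESeq2's size factors it was 1.00 and counted as called. Ccr2 was at 297.5, 235.6 and 245.3 CPM in WT and 110.4, 104.4 and 97.0 CPM in Vehicle and fell by 1.32 ± 0.08 on the log2 scale (edgeR, adjusted p = 1.84e-08). Without the first WT library, the highest in Ccr2, the log2 fold change was -1.21. The groups did not overlap for either receptor.

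Each treatment was compared with Vehicle to see whether it changed the transcripts that stood higher in obese recipients. These comparisons share the Vehicle libraries with each other and with Vehicle vs WT, so a low value in 1 of them is not independent of the rest. Each of the 7 ligands was lower in each treated group, with no overlap between treated and Vehicle libraries, which held for 75.5%, 76% and 75.7% of all genes with GLP-1RA, anti–IL-17A and Combo. With GLP-1RA 7 of the 9 genes were called lower and 0 higher, where 16.7% of all genes were called (9.08% lower, 7.6% higher). With anti–IL-17A 6 were called lower and 0 higher, where 16.1% of all genes were called (8.46% lower, 7.65% higher). With Combo 7 were called lower and 0 higher, where 17.7% were called (11.1% lower, 6.58% higher).

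Ccl2 fell to 0.673, 1.01 and 0.734 CPM with GLP-1RA, to 1.92, 2.30 and 2.81 CPM with anti–IL-17A, and to 1.33, 1.89 and 1.41 CPM with Combo. The log2 fold changes against Vehicle were -6.75 ± 0.11, -5.21 ± 0.09 and -5.83 ± 0.10. Ccl7 was at the limit of counting in the treated groups, with 2, 6 and 3 counts summed over the libraries of GLP-1RA, anti–IL-17A and Combo, against 862 in Vehicle. Set against the library sizes, Vehicle exceeded these groups 519-fold (95% counting interval 143 to 4290), 174-fold (79.5 to 475) and 312-fold (106 to 1520). Ccl12 summed to 8 counts with GLP-1RA against 2739 in Vehicle, a ratio of 412-fold (209 to 956). It fell by 8.62 ± 0.22 with anti–IL-17A and by 7.60 ± 0.20 with Combo on the log2 scale. These SEs understate the counting error, as the 2 groups held 8 and 15 counts in sum. Ccl8 changed by -4.52 ± 0.16, -5.20 ± 0.17 and -3.17 ± 0.14, and stayed highest of the treated groups in Combo, at 1.57, 1.89 and 1.74 CPM. These counting intervals cover counting error only.

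Ccl3 responded least among the ligands. It was at 8.59, 7.93 and 8.16 CPM with GLP-1RA, 15.4, 16.2 and 14.6 CPM with anti–IL-17A and 7.06, 6.72 and 8.24 CPM with Combo. With anti–IL-17A its log2 fold change of -0.76 ± 0.08 (edgeR, adjusted p = 1.14e-11) did not pass the fold limit, and it stayed above each WT library. Ccl4 changed by -3.37 ± 0.11, -2.68 ± 0.11 and -3.89 ± 0.12 in the same order of treatments. Ccl5 was at 36.2, 32.2 and 35.3 CPM with GLP-1RA, which overlapped WT, but at 20.5, 21.4 and 21.2 CPM with anti–IL-17A and 13.7, 15 and 14.4 CPM with Combo, both below each WT library.

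For Ccr2 the treatments parted. GLP-1RA left it at 92.2, 93.7 and 92.7 CPM, with a log2 fold change against Vehicle of -0.16 ± 0.08 that did not pass the test (edgeR, adjusted p = 0.0921; 95% interval -0.34 to 0.02). With anti–IL-17A it stood at 204.6, 206.7 and 207.2 CPM, a log2 fold change of 0.99 ± 0.08 (edgeR, adjusted p = 3.32e-07), and with Combo at 173.9, 176.0 and 168.0 CPM, a log2 fold change of 0.73 ± 0.08 (edgeR, adjusted p = 5.32e-06). Neither passed the fold limit, and in both groups each library lay above each Vehicle library and below each WT library. The direct comparison of GLP-1RA with anti–IL-17A, in which 5.83% of all genes were called, gave -1.15 ± 0.08 for Ccr2 (edgeR, adjusted p = 1.18e-07). Ccr1 was at 281.0, 287.3 and 284.5 CPM with GLP-1RA, within the range of WT, at 306.5, 296.1 and 304.4 CPM with anti–IL-17A, and at 382.7, 383.9 and 385.5 CPM with Combo, above each library of WT and of both single agents.

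Combo was set against WT and against the single agents to see what the combination added. Against WT, 2 of the 9 genes were called, both lower (14.3% of all genes). Ccl5 fell by 1.19 ± 0.05 (edgeR, adjusted p = 2.2e-22). Ccl7, with 3 counts against 19, gave a ratio of 0.170 (95% counting interval 0.0322 to 0.577), and its call was lost without the first WT library (edgeR, adjusted p = 0.119). Ccl2 did not pass the test at -0.09 ± 0.18 (edgeR, adjusted p = 0.641; 95% interval -0.49 to 0.30), and the libraries of both groups overlapped. Against GLP-1RA, where 13.2% of genes were called, Ccl8 rose by 1.35 ± 0.21 and Ccl5 fell by 1.27 ± 0.05, while Ccr2 was higher by 0.89 ± 0.08, inside the fold limit. Against anti–IL-17A, where 5.67% of genes were called, Ccl8 rose by 2.03 ± 0.23, Ccl3 fell by 1.07 ± 0.09 and Ccl4 fell by 1.20 ± 0.15. Among the treated groups, Combo was thus lowest in Ccl3, Ccl4 and Ccl5 and highest in Ccl8 and Ccr1, although its Ccl3 and Ccl4 libraries overlapped those of GLP-1RA.

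In ATMs the ligands were at higher levels and the pattern against WT had the same direction. In Vehicle 8 genes rose and Ccr2 fell, each past both limits, where 35.4% of all ATM genes were called (12.5% higher, 22.9% lower). Their median log2 fold change was 2.65, against -0.21 for all genes. Ccl2 went from 283.6, 264.7 and 276.1 CPM in WT to 3960, 3792 and 4242 CPM in Vehicle, a log2 fold change of 3.86 ± 0.06 (edgeR, adjusted p = 3.45e-17). Ccl7 went from 286, 274 and 295 CPM to 2328, 2201 and 2612 CPM, a log2 fold change of 3.06 ± 0.06. No library of WT came near the range of Vehicle for these 2 genes.

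Ccl8 showed the smallest rise, from 151.8, 141.1 and 143.6 CPM to 330.7, 279.0 and 302.1 CPM, a log2 fold change of 1.06 ± 0.07. Without the first Vehicle library it was 0.99 and no longer called. Ccl12, the weakest of the 4 in ATMs, rose from 8.69, 8.46 and 8.90 CPM to 49.5, 61.4 and 52.3 CPM, by 2.65 ± 0.19. Ccl5 had the largest change of the 9 genes in ATMs, from 87.5, 74.7 and 81.3 CPM to 1511, 1286 and 1476 CPM, a log2 fold change of 4.13 ± 0.09 (edgeR, adjusted p = 1.76e-15). Ccl3 rose by 2.01 ± 0.11 to 114.2, 106.1 and 144.5 CPM, and Ccl4 by 2.44 ± 0.05 to 717.2, 655.7 and 735.0 CPM. WT and Vehicle libraries did not overlap for any of the 9 genes, as was so for 62.9% of all genes.

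Ccr1 rose from 61.7, 63.0 and 69.8 CPM in WT ATMs to 446.5, 436.1 and 432.3 CPM in Vehicle, a log2 fold change of 2.76 ± 0.06 (edgeR, adjusted p = 5.71e-15). Ccr2 fell from 51.1, 52.1 and 62.2 CPM to 8.17, 10.9 and 9.79 CPM, a log2 fold change of -2.52 ± 0.13 (edgeR, adjusted p = 1.5e-10). The Vehicle ATMs thus held the highest levels of the ligands of CCR2 and the lowest level of Ccr2 itself.

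**Figure D2:**
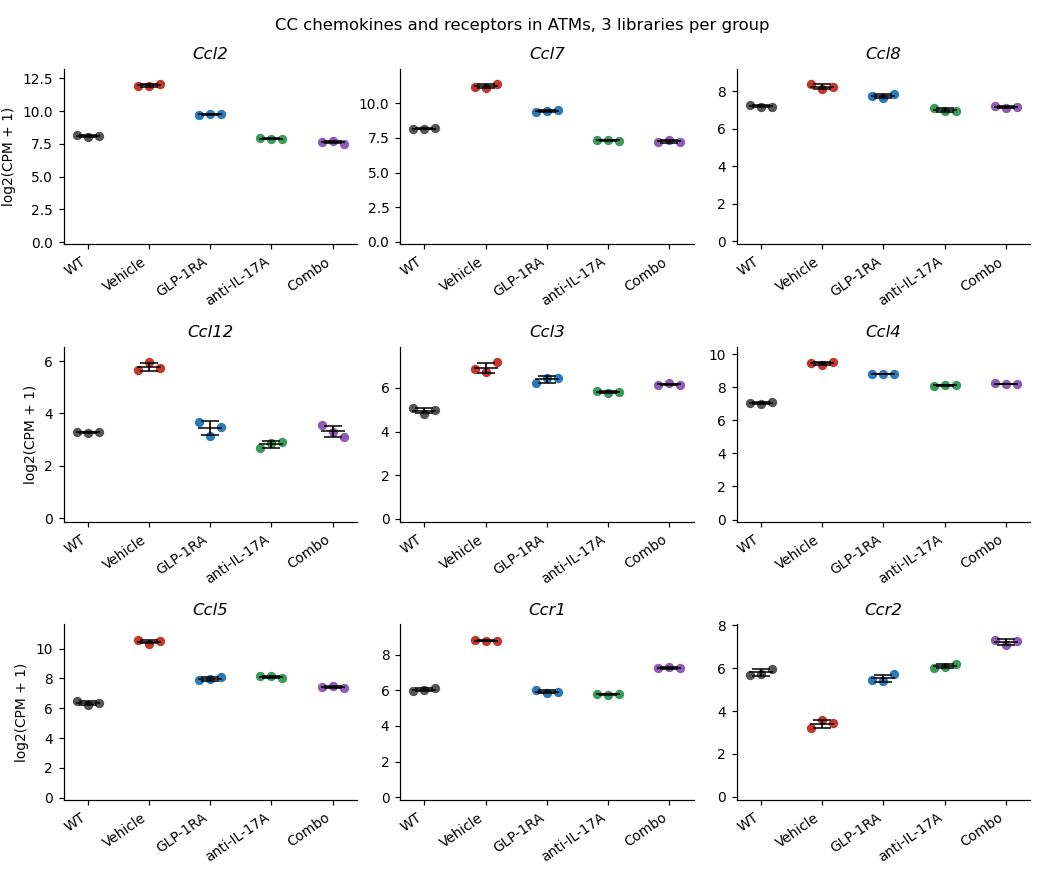
Level of each gene in ATMs as log2(CPM + 1), with 1 point per library, 5 groups of 3 libraries on the x axis, and bars for mean ± SD. Ccl2 and Ccl7 in GLP-1RA lie between Vehicle and the other groups, and Ccr2 is lowest in Vehicle (8.17 to 10.9 CPM) and highest in Combo (133.8 to 158.2 CPM).

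Under treatment the ligands again fell against Vehicle, in ATMs by amounts that depended on the agent. With GLP-1RA 5 genes were called lower and 1 higher, where 31.8% of all genes were called (10.9% lower, 20.8% higher). With anti–IL-17A it was 8 lower and 1 higher, where 35.5% were called (13.1% lower, 22.4% higher). With Combo it was 7 lower and 1 higher, where 26.4% were called (12.2% lower, 14.1% higher), and the gene called higher was Ccr2 each time. Ccl2 was at 851, 877 and 866 CPM with GLP-1RA, 242, 233 and 236 CPM with anti–IL-17A and 204, 211 and 183 CPM with Combo, with log2 fold changes of -2.21 ± 0.05, -4.08 ± 0.06 and -4.33 ± 0.06. Ccl7 was at 666, 696 and 716 CPM, then 159.0, 162.4 and 157.3 CPM, then 146.9, 163.5 and 145.1 CPM, with log2 fold changes of -1.78 ± 0.06, -3.90 ± 0.07 and -3.97 ± 0.07. In GLP-1RA both genes stayed above each WT library, whereas with anti–IL-17A and with Combo both lay below each WT library.

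Ccl12 reached the WT range with GLP-1RA, at 11.7, 7.84 and 10.3 CPM (log2 fold change -2.45 ± 0.18), and also with Combo, at 10.7, 8.90 and 7.66 CPM. With anti–IL-17A it went below it, at 5.39, 6.32 and 6.55 CPM. Ccl8 passed the fold limit with anti–IL-17A (-1.24 ± 0.07) and Combo (-1.09 ± 0.07) but not with GLP-1RA (-0.51 ± 0.07).

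The macrophage inflammatory proteins and RANTES stood above WT in each treated group, with no overlap with WT libraries, as was so for 55.4% (GLP-1RA), 55.9% (anti–IL-17A) and 56.1% (Combo) of all genes. Ccl4 was at 445.5, 453.1 and 451.2 CPM with GLP-1RA, 275.9, 278.5 and 276.9 CPM with anti–IL-17A and 300.7, 292.9 and 294.8 CPM with Combo, where WT lay between 124.8 and 135.1 CPM. Ccl5 was at 233.9, 246.0 and 277.4 CPM with GLP-1RA, 278.8, 279.3 and 254.2 CPM with anti–IL-17A and 173.1, 175.6 and 163.1 CPM with Combo. Its changes against Vehicle were -2.50 ± 0.08, -2.39 ± 0.08 and -3.06 ± 0.08. Ccl3 fell past the fold limit with anti–IL-17A (-1.14 ± 0.11), and its changes of -0.55 ± 0.11 with GLP-1RA and -0.79 ± 0.11 with Combo were inside it.

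Ccr1 fell to 64.0, 57.3 and 58.1 CPM with GLP-1RA and to 55.1, 51.8 and 53.9 CPM with anti–IL-17A, but to 148.5, 157.5 and 150.0 CPM with Combo. Ccr2 rose against Vehicle by 2.24 ± 0.13 with GLP-1RA, by 2.80 ± 0.13 with anti–IL-17A and by 3.95 ± 0.14 with Combo (edgeR, adjusted p = 7.04e-10, 4.25e-11 and 1.17e-12). Its libraries stood at 43.1, 41.4 and 51.9 CPM with GLP-1RA, overlapping WT, at 63.8, 65.9 and 71.8 CPM with anti–IL-17A and at 158.2, 133.8 and 153.2 CPM with Combo. Combo was therefore above WT, and above each single agent, in both receptors.

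Against WT, Combo ATMs had 5 of the 9 genes called higher and 0 lower (21.6% of all genes were called). They were Ccl3 (1.23 ± 0.11), Ccl4 (1.19 ± 0.04), Ccl5 (1.07 ± 0.08), Ccr1 (1.23 ± 0.06) and Ccr2 (1.43 ± 0.12). Ccl7 was lower by 0.91 ± 0.06 (edgeR, adjusted p = 5.1e-09), inside the fold limit, and Ccl8 did not pass the test at -0.02 ± 0.07 (95% interval -0.19 to 0.14). Against GLP-1RA, where 18.7% of genes were called, Combo fell by 2.12 ± 0.05 in Ccl2 and by 2.19 ± 0.06 in Ccl7 and rose by 1.35 ± 0.06 in Ccr1 and by 1.71 ± 0.12 in Ccr2. Against anti–IL-17A, where 14.2% were called, it rose in Ccr1 by 1.5 ± 0.06 and in Ccr2 by 1.14 ± 0.12 and in no ligand past the limits. For Ccl7 that difference was -0.07 ± 0.06 (95% interval -0.20 to 0.06).

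The single agents were also set against WT. In BM, GLP-1RA had 3 genes called lower (14.7% of all genes were called), namely Ccl2 (-1.01 ± 0.20), Ccr2 (-1.48 ± 0.08) and Ccl7, with 2 counts against 19, and anti–IL-17A had 2, namely Ccl8 (-1.45 ± 0.25) and Ccl7, with 6 counts against 19 (6.32% of all genes). The Ccl2 call with GLP-1RA fell inside the fold limit without the first WT library (-0.87), without the first GLP-1RA library (-0.90) or without the third (-0.96). The Ccl7 call with anti–IL-17A was lost without the first WT library (edgeR, adjusted p = 0.362), and without the first or the second anti–IL-17A library (edgeR, adjusted p = 0.0656 and 0.134). In ATMs, GLP-1RA had 5 genes called higher (15.1%), with Ccl4 at 1.79 ± 0.05 and Ccl2 at 1.65 ± 0.05, and anti–IL-17A had 2 (18.7%), Ccl5 at 1.74 ± 0.08 and Ccl4 at 1.09 ± 0.05. GLP-1RA ATMs exceeded anti–IL-17A ATMs in Ccl2 by 1.87 ± 0.05 and in Ccl7 by 2.12 ± 0.06, where 8.1% of all genes were called.

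The size of the change was compared between the tissues as an interaction in 1 fit of all 30 libraries over the 13076 genes counted in both, where an adjusted p below 0.05 counts as a difference and no fold limit applies. The fit takes a shared spread per gene, while the biological coefficient of variation was 3.51% in BM and 32.5% in ATMs. Its SEs and p-values therefore do not measure the spread of either tissue alone. For Vehicle vs WT all 9 genes differed, as did 56% of all genes. The rise of the monocyte chemoattractant proteins was larger in BM, most of all for Ccl12, for which the log2 fold change in ATMs minus that in BM was -5.27 ± 0.40. In WT BM no library exceeded 10 counts for Ccl12 or 12 for Ccl7, so the size of their differences rests on few counts. Ccl5 and Ccr1 changed more in ATMs, by 1.48 ± 0.10 and 1.77 ± 0.06. Ccr2 fell further in ATMs, by 1.20 ± 0.14 (edgeR, adjusted p = 5.48e-08).

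For GLP-1RA vs Vehicle 8 of 9 genes differed (53.4% of all genes). Ccl2 fell by 6.75 in BM and by 2.21 in ATMs, a difference of 4.54 ± 0.14 (edgeR, adjusted p = 2.93e-20). Only Ccl5, at -2.58 in BM and -2.50 in ATMs, did not pass the test of a difference (edgeR, adjusted p = 0.521). For Ccr2, each ATM library of GLP-1RA lay above and each BM library below the Vehicle libraries of its tissue. The difference was 2.40 ± 0.14 (edgeR, adjusted p = 8.02e-14). The BM change by itself, at -0.16, did not pass its test (edgeR, adjusted p = 0.0921). In BM, 75.5% of all genes had no overlap in this comparison. With anti–IL-17A (56.4% of all genes differed) and with Combo (55.1%) all 9 genes differed. With anti–IL-17A the difference for Ccl3 was the smallest, at -0.41 ± 0.14 (edgeR, adjusted p = 0.0169), and the call was lost without the third Vehicle library of either BM (edgeR, adjusted p = 0.0559) or ATMs (edgeR, adjusted p = 0.104).

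**Figure D3:**
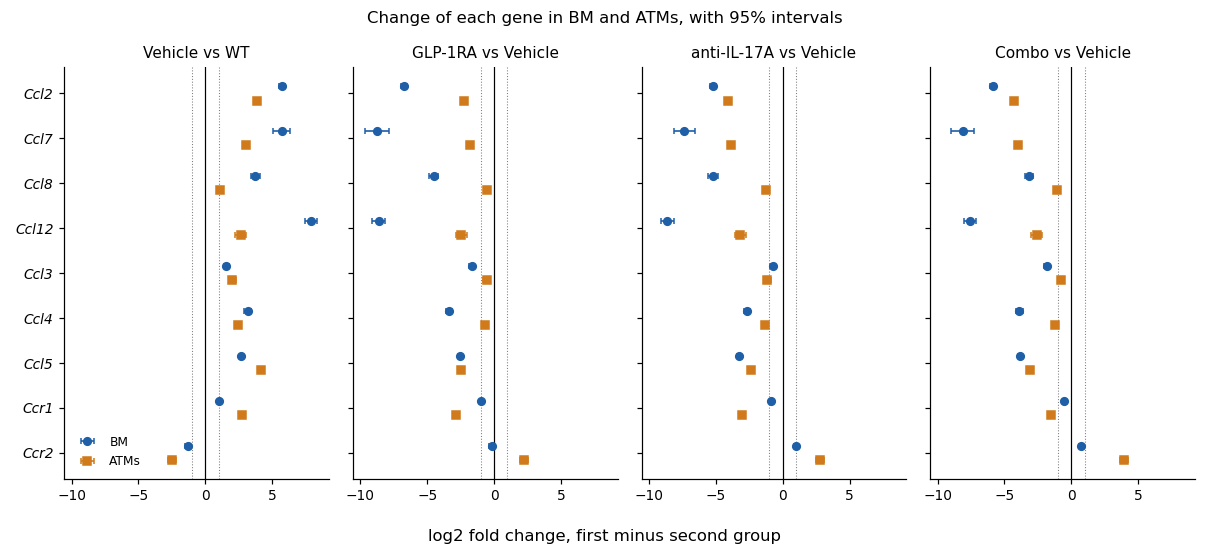
Log2 fold change of the 9 genes in 4 comparisons, circles for BM and squares for ATMs, with 95% intervals from the edgeR fit of 15 libraries per tissue. Dotted lines mark the fold limit of 1. Ccl7 and Ccl12 have the widest intervals in BM, where WT and treated libraries held few counts, and Ccr2 is the gene on the other side of zero from the ligands in ATMs. For Ccl7 and Ccl12 in BM the drawn intervals understate the counting error.

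Levels were compared between the ligands after division by exon length (CPM per kb). In BM the 4 genes of the monocyte chemoattractant proteins (Ccl2, Ccl7, Ccl8 and Ccl12) made up 7.64% of the ligand signal in WT and 38.0% in Vehicle, and Ccl5 alone 63.4% and 46.7%. In the treated BM groups they made up 4.17% (GLP-1RA), 6.09% (anti–IL-17A) and 15.8% (Combo). ATMs had the reverse balance, with 73.7% from these 4 genes in WT and 72.6% in Vehicle, and Ccl2 rising from 19.8% to 35.5%. These 4 genes held 66.2% with GLP-1RA, 46.4% with anti–IL-17A and 47.9% with Combo. Ccl4 had become the largest share with anti–IL-17A (29.1%) and with Combo (32.5%). The summed CPM of the 7 ligands in BM was 398.3 to 399.7 in Vehicle, against 45.59 to 49.19 in WT. It was 44.15 to 49.1 with GLP-1RA, 42 to 44.09 with anti–IL-17A and 25.3 to 27.7 with Combo, the last below each WT library. In ATMs it was 8380 to 9564 in Vehicle, 2495 to 2638 with GLP-1RA, 1108 to 1157 with anti–IL-17A and 1008 to 1060 with Combo, against 915.5 to 980.6 in WT.

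**Figure D4:**
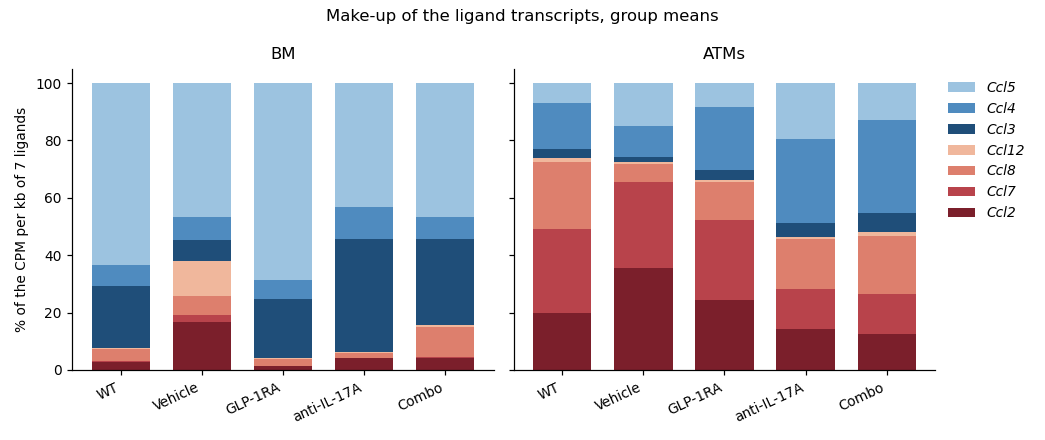
Share of each ligand in the summed CPM per kb of the 7 ligands, as group means of 3 libraries, in BM and ATMs. Red shades are Ccl2, Ccl7, Ccl8 and Ccl12 and blue shades are Ccl3, Ccl4 and Ccl5, and the red share of BM is widest in Vehicle.

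Other genes of the system did not share a single direction. Of 14 other CC ligands, 6 were in the BM table, of which 2 were called higher and 1 lower in Vehicle vs WT (19.5% of all genes were called in BM and 35.4% in ATMs). The 2 were Ccl19, a ligand of CCR7 (0.205 to 3.13 CPM), and Ccl22, a ligand of CCR4 (0.384 to 3.25 CPM), and the 1 was Ccl6, which fell from 689.5 to 241.0 CPM. In ATMs, 12 of the 14 were in the table, 4 called higher and 3 lower, with Ccl19 rising by 4.26 ± 0.17 and Ccl24 (eotaxin-2) falling by 4.93 ± 0.47. Of 15 other CC and atypical receptors, 4 were called higher and 6 lower among 14 in BM, and 2 higher and 2 lower among 15 in ATMs. Ccrl2, which binds chemerin and does not signal, rose by 3.30 ± 0.09 in BM and 2.77 ± 0.04 in ATMs, and Cx3cr1, the fractalkine receptor of patrolling monocytes, fell by 2.67 ± 0.08 in BM. Ackr1, which takes up CC chemokines on venular endothelium, rose by 2.89 ± 0.11 in ATMs.

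Of 22 genes of signaling below the receptors, 21 were in each table. In Vehicle vs WT, 2 were called higher and 1 lower in BM and 6 higher and 2 lower in ATMs, shares near or below the 19.5% and 35.4% of all genes. Rgs1, which shortens the signal of G proteins, rose in both tissues, by 3.18 ± 0.08 in BM and 1.48 ± 0.05 in ATMs. In Combo vs Vehicle it fell by 4.13 ± 0.09 in BM, while Arrb1, a β-arrestin, rose by 1.29 ± 0.03. The ATM calls of that comparison were 6 higher and 1 lower of 21, where 26.4% of all genes were called (14.1% higher, 12.2% lower). They included Dock2, which drives Rac in migrating leukocytes, at 2.34 ± 0.15.

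Markers of the cells that make or carry these molecules moved with the groups too. Their counts called in Vehicle vs WT stand beside 19.5% of all genes in BM (9.44% higher, 10% lower). In ATMs the share was 35.4% (12.5% higher, 22.9% lower). The summed CPM of 10 classical monocyte markers was 6650 to 6710 in WT BM and 16800 in each library of Vehicle BM, but 2 genes carried the rise. Chil3 went from 4480 to 12600 CPM and Ly6c2 from 673 to 2700 CPM on average, whereas over the 10 genes 3 were called higher and 0 lower, 4 had a lower value in Vehicle, and the median log2 fold change was 0.17. Over the same libraries Ccr2, itself a gene of classical monocytes and left out of that list, fell. In ATMs the sum was 1990 to 2060 in Vehicle, below all other groups (2680 to 3780), although Ly6c2 rose from 32.9 to 555 CPM, and 3 of the 10 genes were called higher and 4 lower in Vehicle vs WT. The macrophage list (14 genes, all in the table) summed to 1820 to 1910 CPM in Vehicle ATMs and 2980 to 8050 CPM in the other ATM libraries, with 8 genes called lower and 2 higher in Vehicle vs WT. Adgre1, which encodes the F4/80 antigen used for the sort, was at 42.3 CPM on average in Vehicle against 208 in WT, 390 in GLP-1RA, 875 in anti–IL-17A and 400 in Combo.

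Neutrophil markers (11 of 12 in the table) summed to 21500 to 22800 CPM in Vehicle ATMs and 12800 to 13100 CPM in Combo ATMs, and to 184 to 413 CPM in the other ATM groups. All 11 were called higher in Vehicle vs WT and in Combo vs WT, where 35.4% and 21.6% of all genes were called. Between Combo and Vehicle 4 were called higher and 4 lower (26.4% of all genes were called). The lower sum of Combo came mostly from S100a8 (9590 and 3670 CPM in Vehicle and Combo) and S100a9 (6340 and 2730 CPM). The libraries high in these markers are those high in Ccr1. T and NK cell markers (11 of 12) summed to 499 to 508 CPM in Vehicle BM and 155 to 236 CPM in the other BM groups. The higher sum came from the granule genes Gzmb (6.70 to 241 CPM from WT to Vehicle), Gzma (25.4 to 91.5 CPM) and Prf1 (6.42 to 33.5 CPM), while 7 of the 11 genes, Cd3d and Ncr1 among them, had lower values in Vehicle than in WT. In ATMs the list summed to 315 to 325 CPM in WT, 333 to 359 CPM in Vehicle and 586 to 989 CPM in the treated groups. Of its 11 genes, 1 was called higher and 7 lower in Vehicle vs WT. The 10 interferon-stimulated genes summed to 5680 to 5710 CPM in Vehicle BM against 128 to 311 CPM elsewhere in BM, and to 24000 to 24600 CPM in Vehicle ATMs against 366 to 841 CPM elsewhere, and all 10 were called higher in Vehicle vs WT in each tissue. The exocrine pancreas transcript Prss2, chosen after its value was seen, was at 297 CPM on average in Combo ATMs. It was at most 3.40 CPM as the mean of any other ATM group. Its list of 9 epithelial and pancreatic genes summed to 772 to 782 CPM in Combo ATMs and to 709 to 731 CPM in WT ATMs. The sum was lower in the other ATM groups. In Combo vs WT, 5 of the 9 genes were called higher and 4 lower, as they were in Combo vs Vehicle. Fibroblast collagen Col1a1 was at 922 to 2510 CPM as the mean of each ATM group. The part of these cell types and genes in the changes of the 9 genes was not tested.

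**Figure D5:**
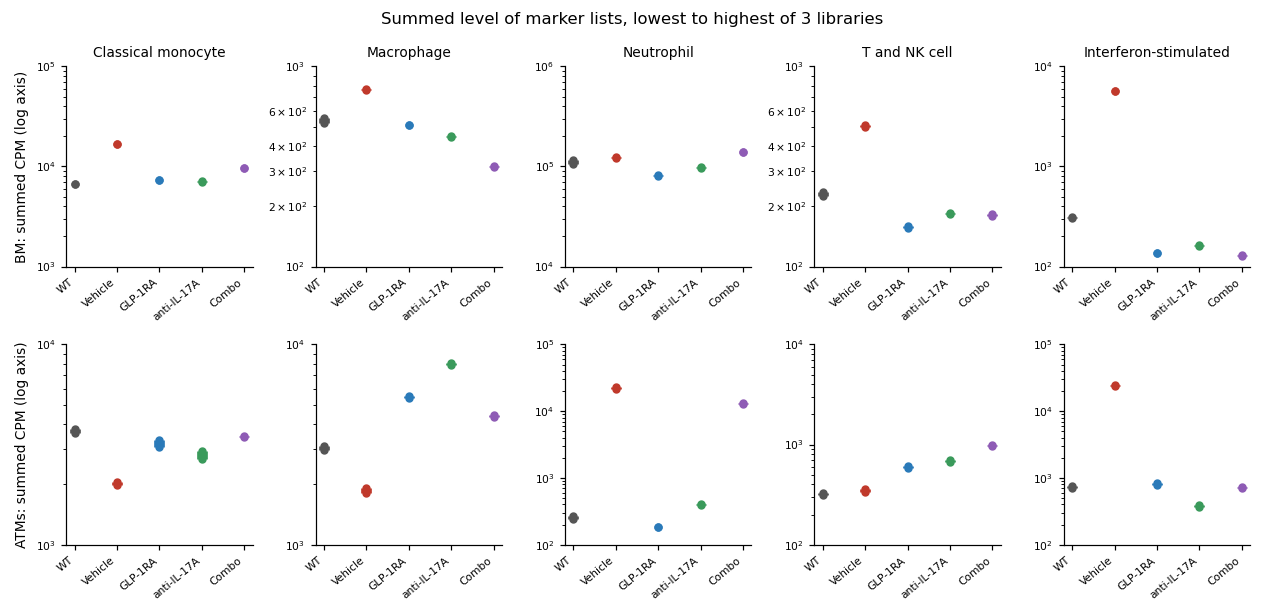
Summed CPM of 5 marker lists on log axes, BM in the upper and ATMs in the lower row, each bar running from the lowest to the highest of 3 libraries. The interferon-stimulated list is highest in Vehicle in both tissues, and the neutrophil list is high in Vehicle and Combo ATMs.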

How the data were processed

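RNA-seq was done on 15 BM and 15 ATM libraries. The authors aligned reads with STAR 2.7.2a to mm10 and deposited raw counts per gene from featureCounts 2.0.1, counted without strand, so reads of overlapping antisense genes cannot be told apart. From these counts, edgeR 4.0.16 (R 4.3.3) fitted the 15 libraries of each tissue with TMM scaling and the quasi-likelihood test, with Benjamini-Hochberg adjustment over all genes. The filter on low counts removed 0 genes. Tissue differences were interactions in 1 fit of 30 libraries. DESeq2 1.42.0, other filters and scalings, the replicate block and leaving out each library were alternatives. Where no library of a group exceeded 3 counts, the ratio of summed counts is given with its exact 95% interval. The SE of a log2 fold change is its absolute value divided by the square root of the F statistic. Intervals of log2 fold changes used this SE and 10 degrees of freedom. For Ccl7 and Ccl12 in BM, where groups held few counts, this SE can be smaller than the counting error alone. All 9 genes were named, as were genes among the 3 largest called changes of each list of other ligands, receptors and signaling genes. Markers were the first of their lists, except Prss2, Chil3, the granule genes, Ncr1, S100a8, S100a9 and Fabp4, chosen after their values were seen. Scripts were tested on simulated data. Nothing states that the libraries come from separate animals beyond the 3 mice per group in the labels. Genes and lists were chosen with earlier results of these data known.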

Additional observations from a re-analysis of the deposited data

Results flagged for a closer look

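Of 36 gene and comparison pairs, 35 differed between ATMs and BM by the interaction test (edgeR, adjusted p below 0.05), which is why they are listed. Of all genes, 53.4% to 56.4% differed in the same comparisons. The pairs are not independent, since all comparisons share the Vehicle libraries. Values are the log2 fold change in ATMs minus that in BM. For Vehicle vs WT the difference was -1.87 for Ccl2, -2.64 for Ccl7, -2.68 for Ccl8, -5.27 for Ccl12, 0.46 for Ccl3, -0.73 for Ccl4, 1.48 for Ccl5, 1.77 for Ccr1 and -1.20 for Ccr2. For GLP-1RA vs Vehicle the difference was 4.54 for Ccl2, 6.96 for Ccl7, 4.01 for Ccl8, 6.16 for Ccl12, 1.11 for Ccl3, 2.73 for Ccl4, -1.89 for Ccr1 and 2.40 for Ccr2. For anti–IL-17A vs Vehicle the difference was 1.11 for Ccl2, 3.42 for Ccl7, 3.93 for Ccl8, 5.44 for Ccl12, -0.41 for Ccl3, 1.32 for Ccl4, 0.87 for Ccl5, -2.16 for Ccr1 and 1.79 for Ccr2. For Combo vs Vehicle the difference was 1.54 for Ccl2, 4.19 for Ccl7, 2.13 for Ccl8, 5.06 for Ccl12, 1.08 for Ccl3, 2.68 for Ccl4, 0.82 for Ccl5, -0.93 for Ccr1 and 3.26 for Ccr2. The pair with opposite signs in every replicate was Ccr2 with GLP-1RA vs Vehicle, where the BM change by itself did not pass its test. Ccl7 and Ccl12 in WT and treated BM rested on few counts, so their fitted differences depend on the prior count. The tissues were separate count tables with a biological coefficient of variation of 3.51% in BM and 32.5% in ATMs, and the cause of the differences was not tested.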

How the results depend on the processing

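Of 328 alternative counts of genes called or differing, 311 stayed within 1.5 times the value given and 17 did not, and of 2912 alternative log2 fold changes of single genes 2838 kept direction and call, 64 gained a call, 10 lost one and 0 reversed. Without a fold limit, the genes called in BM were 7 for Combo vs WT, 6 for Combo vs GLP-1RA, 7 for Combo vs anti–IL-17A, 8 for anti–IL-17A vs WT and 7 for GLP-1RA vs anti–IL-17A, and in ATMs 7 for Combo vs GLP-1RA, 6 for Combo vs anti–IL-17A, 7 for anti–IL-17A vs WT and 7 for GLP-1RA vs anti–IL-17A, since small changes then count. With at least 10 counts in every library, or with only the 6 libraries compared, 1 gene was called in BM for Combo vs WT and 1 for anti–IL-17A vs WT. Leaving out 1 library at a time gave 1 to 2 calls for BM Combo vs WT (1 without WT replicate 1) and 1 to 2 for BM anti–IL-17A vs WT (1 without WT replicate 1 or anti–IL-17A replicate 1 or 2), where Ccl7 was the gene lost without WT replicate 1. BM Ccr1 in Vehicle vs WT passed the fold limit with DESeq2's size factors (1.00). DESeq2's scaling moved the median of all genes by less than 0.1. With the replicate number as a block, 8 genes were called in BM and 9 in ATMs for Vehicle vs WT, the same as without it, and the block changed no call. Same-numbered libraries did not deviate together, with correlations of -0.077 to 0.166 in BM and -0.061 to 0.030 in ATMs, so they share only a number. The comparisons of single agents with WT and with each other were added after the data were seen. Depth limits Ccl7 and Ccl12 in WT and treated BM, at 12 counts or fewer per library.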

Other observations

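Of the genes with a mean of at least 1 CPM (11795 compared in BM, 14623 in ATMs), the one whose log2 level followed Ccl2 most closely over the 15 BM libraries was Eif2ak2 (Pearson's r = 0.996), that for Ccl7 was Ifih1 (0.998) and that for Ccr2 was Ezh2 (0.991). In ATMs the closest to Ccl12 was Ifit2 (0.992), to Ccl4 Serpina3n (0.995) and to Ccr1 Sftpd (0.996). Ccl2 and Ccl7 had r = 0.991 in BM. These are descriptions over libraries that fall into 5 groups of 3, so each r mostly reflects the group means.

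Other marker lists also differed between groups. In ATMs the dendritic cell list (8 genes) summed to 728 to 775 CPM in Vehicle and 1570 to 2910 CPM in the other groups. In Vehicle vs WT 3 of its genes were called lower and 1 higher, where 22.9% of all genes were called lower and 12.5% higher. The adipocyte list (7 genes) summed to 4020 to 4270 CPM in Vehicle and 1130 to 1300 CPM elsewhere, but that rise was Fabp4 alone (997 to 4020 CPM from WT to Vehicle), a gene that macrophages also express, and the other 6 genes had lower values in Vehicle. In BM the B cell list (8 genes) summed to 1230 to 1250 CPM in WT and 117 to 404 CPM in the Ob/Ob groups.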
